A study of Homo sapiens with 6 samples.

Results

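The genes described here are 10 regulators and products of fat cells, namely PPARG, CEBPA, CEBPB, CEBPD, ZNF423, LPL, FABP4, DGAT2, PLIN2 and ADIPOQ. They were taken by gene symbol from a table of 58735 genes, and the rule uses no measured value. The RNA came from UE7T-9, a line of mesenchymal stem cells (MSCs) from human bone marrow, kept in DMEM. The control group was 3 libraries of UE7T-9 cells given as wild type (WT). The SRRM4 KO group was 3 libraries of UE7T-9 cells that had received a lentiviral CRISPR v2 vector against SRRM4, a splicing regulator of neurons, and had then been selected with puromycin. The KO cells were grown from limiting dilution, so the group stands for a single clonal line, and the study's text says that its loss of the protein was not complete. The controls are not stated to have been cloned, and whether they carried a vector is not clear, since their label gives wild type while the study's text counts infection by lentivirus among the things that may have altered them. A difference between the groups therefore cannot be told apart from a difference between a clone and its parent line. Neither group is stated to have been given a fat-inducing medium.

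A mesenchymal stem cell can become a bone, cartilage or fat cell. In the textbook order of fat cell formation, CEBPB and CEBPD come first, they switch on PPARG and CEBPA, and these then hold each other on and drive the genes that take up, bind and store fatty acids. Fat is kept as triglyceride in lipid droplets, which DGAT enzymes fill and perilipins coat.

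Each library held between 21496117 and 23868323 counts. Counts were spread over 22403 genes in control replicate 1, against 20613 and 20674 in the other controls and 20127 to 20480 in KO. SRRM4 itself had 0 counts in all 6 libraries, so the counts do not check the knockout. Of the surface markers of MSCs, NT5E had a mean of 342 ± 20.7 CPM (counts per 1000000 counts after TMM scaling of the libraries, SD, n = 3) in control and 490 ± 8.19 in KO, and ENG had 246 ± 19.6 and 194 ± 7.96. THY1 was at 144 ± 17.7 and 26.7 ± 2.62 CPM, and with PDGFRA and PDGFRB it made 3 of 5 MSC markers called lower in KO (log2 fold change below -1 at an adjusted p under 0.05), beside 7.14% of all genes tested. All 5 passed the adjusted p, 4 lower and NT5E higher, beside 41.6% of all genes tested (20.9% lower and 20.7% higher). The summed CPM of these 5 markers was 1420 to 1534 in control and 883 to 895 in KO. The markers of mature fat cells summed to 2.35 to 4.08 CPM in control and 3.95 to 7.81 in KO, nearly all of it LIPE, while ADIPOQ, LEP and CIDEC had no count. Blood markers summed to 20.1 to 21.5 and 17.9 to 21.0 CPM, mostly CD14 and CD34, with at most 2 counts of PTPRC in a library. Endothelial markers summed to 0.941 to 2.18 and 1.03 to 1.15 CPM, and epithelial markers to 0.600 to 1.75 and 0.404 to 0.575. The part of other cells and of the lower MSC markers in the results below was not tested. Fits were repeated without control replicate 1, and their values are given below for some genes. Why that library counted more genes was not tested. In these bulk libraries, fewer cells of a kind and less RNA per cell cannot be told apart.

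Coordinates are those of GENCODE 29 (GRCh38). Differences are log2 fold changes of KO against control fitted by edgeR (quasi-likelihood), and p-values were adjusted by Benjamini-Hochberg over the 15341 genes with enough counts to test. A gene is said to have risen or fallen when its adjusted p was under 0.05, and to be called when its log2 fold change also lay beyond 1. Of the 10 genes, 7 could be tested. PPARG rose, and CEBPB, CEBPD, DGAT2 and PLIN2 fell, which is 5 of 7 or 71.4%, against 41.6% of all genes tested, of which 20.7% rose and 20.9% fell. Only 2 fell with scaling by library totals, and likewise without control replicate 2, KO replicate 1 or KO replicate 3. DGAT2 was the 1 gene called, and it was called lower, which is 14.3% of 7 against 12.6% of all genes tested (5.45% called higher and 7.14% called lower). The libraries of the groups did not overlap for 4 of the 7, against 51.8% of all genes. The median log2 fold change was -0.30, and that of all genes tested was -0.01. CEBPA and FABP4 were too low to test, and ADIPOQ had no count.

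**Figure D1:**
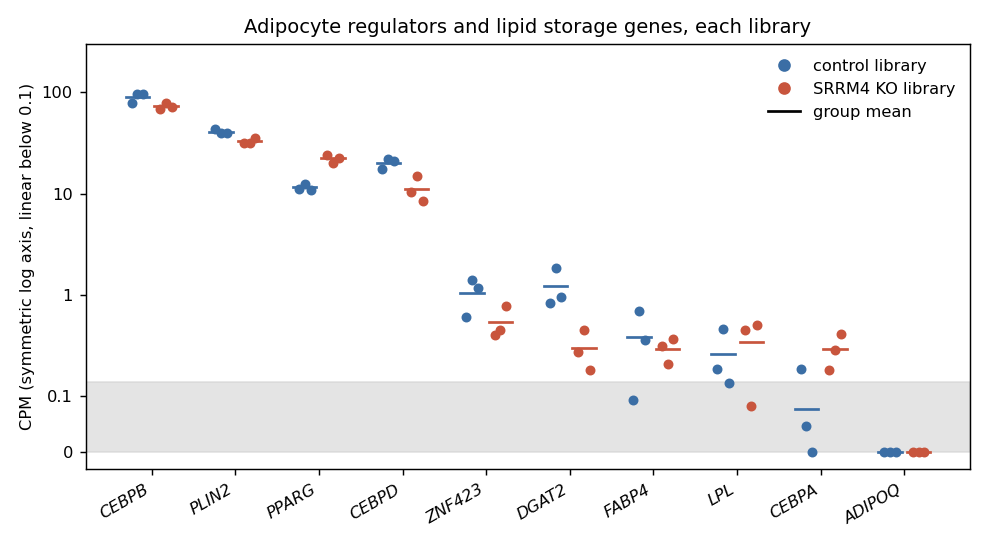
CPM of the 10 genes in each library on an axis that is linear near 0 and logarithmic above, with a dot for each of the 3 control and 3 SRRM4 KO libraries, a line at each group mean and a grey band up to 0.139 CPM, the largest level that 3 counts give. CEBPB, PLIN2, CEBPD and PPARG lie above 8 CPM in every library, the other genes lie below 2 CPM, and ADIPOQ is at 0.

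PPARG (ENSG00000132170, chromosome 3, 12287368 to 12434356, plus strand) encodes the nuclear receptor that fat cell formation needs. It had 11.1, 12.5 and 10.9 CPM in the control libraries and 24.2, 20.2 and 22.5 in the KO libraries. Every KO library was above every control library. The mean went from 11.5 ± 0.860 CPM to 22.3 ± 2.01, a 1.94-fold rise with a log2 fold change of 0.96 (SE 0.133, 95% interval 0.67 to 1.24) and an adjusted p of 3.44e-05. It stayed past the adjusted p when any library was left out, with log2 fold changes of 0.89 to 1.02. The fold threshold was passed without control replicate 2 or without KO replicate 2, with 1.02 in both.

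The counts of PPARG are summed over the gene, which has 6 promoter windows in the RefSeq table for GRCh38.p14, and reads from its different starts cannot be told apart in them. The 60 bases before 2 of these starts are shown because the gene total holds both, with a CCAAT box, on either strand, in capitals. The starts are at 12287368 and 12351417 on the plus strand, and both stretches lie outside the GENCODE 29 exons.
PPARG upstream of the first start, chr3:12287308-12287367: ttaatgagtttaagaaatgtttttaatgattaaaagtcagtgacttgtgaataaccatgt
PPARG upstream of the later start, chr3:12351357-12351416: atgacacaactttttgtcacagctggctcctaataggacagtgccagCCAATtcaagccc
The later stretch holds the letters CCAAT and the first does not. Of the 35097 RefSeq windows of 250 bases before and 50 after a start, 34.6% hold CCAAT on either strand, and 4 of the 13 windows of these genes do.

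The PPAR family has 3 members, and PPARG was the least abundant of them per length in control. Of the summed TPM (counts per kilobase of gene, scaled to a library total of 1000000) of the family, PPARG held 8.65% ± 0.691 (SD, n = 3) in control and 13.7% ± 1.22 in KO, a gain of 5.01 percentage points. The groups did not overlap, and the exact two-sided permutation p was 0.10, the smallest that 3 libraries against 3 can give. PPARA, a receptor of fatty acid burning in liver, went from 11.6% to 7.90%. PPARD, which is found in most tissues, held 79.8% and 78.4%, with overlapping groups. On the CPM scale, PPARA had a log2 fold change of -0.25 (adjusted p = 0.0484) and PPARD one of 0.27 (adjusted p = 0.0170). PPARA stayed past the adjusted p in 1 of the 6 fits with a library left out (without control replicate 1, 0.0345) and missed it with library totals (0.131) and in DESeq2 (0.0649), and PPARD missed it without KO replicate 1 (0.0643) or KO replicate 2 (0.0936).

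CEBPB (ENSG00000172216, chromosome 20, 50190734 to 50192689, plus strand, 1 exon) encodes an early factor of fat cell formation that also acts in inflammation. Its CPM was 77.5, 95.8 and 96.2 in control and 68.8, 78.8 and 71.3 in KO. The lowest control library was below the highest KO library, so the groups overlapped. The mean fell 1.23-fold, from 89.9 ± 10.7 CPM to 72.9 ± 5.22 (log2 fold change -0.30, SE 0.102, 95% interval -0.52 to -0.08, adjusted p = 0.0274). Without control replicate 2 or 3, or KO replicate 1 or 3, the adjusted p was above the threshold, up to 0.116, with log2 fold changes from -0.40 to -0.25 over the 6 fits. Genes of chromosome 20 had a median of 0.15, and CEBPB less that median was -0.45. An antisense gene, CEBPB-AS1, shares 11.8% of its exon bases and had 3 to 19 counts, which these non-stranded libraries cannot separate.

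The stretch before the earlier of the CEBPB starts in RefSeq is shown for contrast with PPARG, with GGGCGG, the letters of a GC box, or their reverse complement in capitals. It lies on the plus strand before 50190583.
CEBPB upstream, chr20:50190523-50190582: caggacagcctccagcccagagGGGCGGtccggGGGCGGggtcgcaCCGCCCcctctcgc
GGGCGG was found in 44.9% of all windows and in 4 of the 13 windows of these genes. TATAAA was found in 5 of the 13, in 4 genes, against 11.5% of all windows, and TGACG, the start of a CRE site, in 1 of the 13 against 24.5%. None of the 13 held the letters TTGCNNCAA (N is any base), which 1.98% of all windows hold. Nor did any hold the strict DR1 repeat bound by PPARG and its partner RXR, which 0.0228% hold. Both strands were searched, no motif contains another, and a match of letters is not a bound site. The 13 windows belong to PPARG, CEBPA, CEBPB, ZNF423, PLIN2 and ADIPOQ, and 6 of them to PPARG. Some windows of a gene overlap, so a TATAAA of PPARG was counted in both of the windows that hold it. The same holds for a CCAAT and some GGGCGG sites of CEBPB.

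CEBPD (ENSG00000221869, chromosome 8, 47736909 to 47739086, minus strand, 1 exon) encodes the other early C/EBP factor. Its CPM was 17.6, 21.9 and 21.2 in control and 10.3, 14.8 and 8.50 in KO. All KO libraries were below all control libraries, and KO replicate 2 was the nearest to them. The mean fell 1.80-fold, from 20.2 ± 2.31 CPM to 11.2 ± 3.26 (log2 fold change -0.85, SE 0.182, 95% interval -1.24 to -0.46, adjusted p = 0.00156). It stayed past the adjusted p with any library left out, and without KO replicate 2 it was also called lower, at -1.11.

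CEBPA (ENSG00000245848, chromosome 19, 33299934 to 33302564, minus strand, 1 exon) encodes the factor that holds PPARG on in mature fat cells. The control libraries had 4, 1 and 0 counts and the KO libraries 4, 7 and 9, which is 5 against 20 in all. Control replicate 1 and KO replicate 1 had the same count, so the groups overlapped. With the filter on low counts removed, the log2 fold change was 1.86 with an SE of 1.38 and an adjusted p of 0.386, so a difference was not detectable at this depth. Of its exon bases, 43.4% are shared with 2 antisense genes, which had no count.

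Within the C/EBP family, CEBPB held most of the summed TPM, 52.9% ± 3.50 in control and 59.6% ± 2.19 in KO (exact two-sided permutation p = 0.10, the smallest possible, 3 against 3). CEBPB fell on the CPM scale while its share of the family was higher in each KO library. CEBPG, a member without an activating domain of its own, went from 21.5% to 17.6%, and its CPM fell from 81.9 ± 1.80 to 48.4 ± 5.60 (log2 fold change -0.76, adjusted p = 1.98e-05). CEBPD held 10.7% ± 0.726 and 8.19% ± 2.15 with overlapping groups (exact permutation p = 0.20). DDIT3, the stress-induced member, held 14.9% and 14.5% with overlapping groups, while its CPM fell from 16.9 ± 2.35 to 11.8 ± 1.20 (log2 fold change -0.52, adjusted p = 0.0115, and 0.0593 without KO replicate 2). CEBPA held 0.0355% ± 0.0453 and 0.177% ± 0.0682 (exact two-sided permutation p = 0.10, the smallest possible), shares that did not overlap although its CPM did and that rest on at most 9 counts in a library. CEBPE had no count.

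ZNF423 (ENSG00000102935, chromosome 16, 49487524 to 49857919, minus strand) encodes a zinc finger protein that marks cells committed to fat and acts ahead of PPARG. The control libraries had 13, 30 and 26 counts (0.600, 1.39 and 1.17 CPM) and the KO libraries 9, 11 and 17 (0.404, 0.452 and 0.773 CPM). The groups overlapped through control replicate 1. The log2 fold change was -0.95 with an SE of 0.523 and a 95% interval of -2.07 to 0.16, and the adjusted p of 0.163 missed the threshold.

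**Figure D2:**
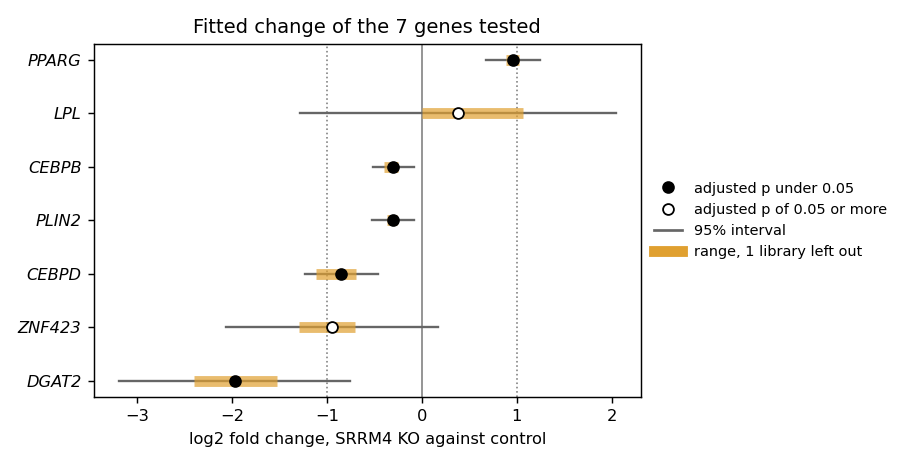
Log2 fold change of SRRM4 KO against control for the 7 genes tested, with 95% intervals as thin bars, the range with 1 library left out as a thick bar, a filled dot for an adjusted p under 0.05 and dotted lines at -1 and 1. PPARG lies to the right at 0.96 and DGAT2 to the left at -1.97, and the intervals of ZNF423 and LPL cross 0.

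Of the genes of fatty acid uptake and binding, LPL (ENSG00000175445, chromosome 8, 19901717 to 19967259, plus strand) encodes lipoprotein lipase, which frees fatty acids from the triglyceride of blood lipoproteins. The control libraries had 4, 10 and 3 counts and the KO libraries 10, 2 and 11. The groups overlapped, with the lowest library of all in KO. The log2 fold change was 0.38 with an SE of 0.779, a 95% interval of -1.28 to 2.04 and an adjusted p of 0.735. The interval spans a fall and a rise of more than 1, so LPL is not resolved at these counts, and its sign rests on KO replicate 3, without which the value was -0.00092.

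FABP4 (ENSG00000170323, chromosome 8, 81478419 to 81483263, minus strand) encodes the fatty acid binding protein of fat cells, a target of PPARG. Control libraries gave 2, 15 and 8 counts and KO libraries 7, 5 and 8, too few to test. Without the filter, the log2 fold change was -0.38 with an SE of 0.93 and an adjusted p of 0.812. The control libraries alone spanned the whole range of the KO libraries.

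Of the fatty acid binding proteins, only FABP3, FABP4 and FABP5 were counted together by TPM. Of their sum, FABP4 held 0.266% in control and 0.614% in KO (exact permutation p = 0.20). FABP3, the heart and muscle form, was the main one, with 96.8% in control and 90.3% in KO, and FABP5, the form of skin, went from 2.89% to 9.09%. Both had an exact two-sided permutation p of 0.10, the smallest possible with 3 libraries against 3. The CPM of FABP3 fell from 92.7 ± 23.1 to 32.8 ± 4.19 (log2 fold change -1.50, adjusted p = 1.85e-06), while that of FABP5 was 5.48 ± 0.756 and 6.70 ± 0.973, with an adjusted p of 0.251. LPL held 11.3% ± 6.29 and 19.6% ± 12.3 of the TPM of its family with LIPC and LIPG, with overlapping groups (exact permutation p = 0.40).

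DGAT2 (ENSG00000062282, chromosome 11, 75759512 to 75801535, plus strand) encodes an enzyme of the last step of triglyceride synthesis. The control libraries had 18, 40 and 21 counts (0.830, 1.86 and 0.941 CPM) and the KO libraries 6, 11 and 4 (0.269, 0.452 and 0.182 CPM). Every KO library was below every control library, and control replicate 2 was well above the other controls. The mean fell from 1.21 ± 0.563 CPM to 0.301 ± 0.138, and the fitted fold was 3.93 (log2 fold change -1.97, SE 0.571, 95% interval -3.19 to -0.76, adjusted p = 0.0116). The call was lost without control replicate 2 (-1.53, adjusted p = 0.0972) and without KO replicate 3 (-1.73, adjusted p = 0.0510). A test against the fold threshold itself gave an adjusted p of 0.216. In KO, only replicate 2 had at least 10 counts, so DGAT2 was not fitted when that was required in every library.

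DGAT1, an unrelated enzyme for the same step, was the abundant form. It held 97.7% of the summed TPM of the pair in control and 99.4% in KO, and DGAT2 held 2.26% ± 0.953 and 0.608% ± 0.302, a difference of -1.65 points (exact two-sided permutation p = 0.10, the smallest possible). The CPM of DGAT1 was 27.3 ± 4.43 and 26.0 ± 3.16, with an adjusted p of 0.715.

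PLIN2 (ENSG00000147872, chromosome 9, 19108375 to 19149290, minus strand) encodes a lipid droplet coat protein found in nearly all cells that hold lipid. Its CPM was 43.1, 39.8 and 39.8 in control and 31.9, 31.7 and 35.7 in KO. The groups did not overlap. The mean fell from 40.9 ± 1.90 CPM to 33.1 ± 2.26 (log2 fold change -0.30, SE 0.102, 95% interval -0.52 to -0.09, adjusted p = 0.0260). The genes of chromosome 9 had a median of -0.24, and PLIN2 less that median was -0.06. Without KO replicate 1 or KO replicate 2, the adjusted p was 0.0967 and 0.102. It was 0.0547 with the replicate number fitted as a block and 0.0705 with scaling by library totals.

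PLIN3, a perilipin that moves from the cytosol to young droplets, held most of the perilipin TPM. Its share went from 81.3% ± 2.51 to 90.1% ± 1.44 and that of PLIN2 from 18.0% ± 2.63 to 9.39% ± 1.37 (exact two-sided permutation p = 0.10 for both, the smallest possible). On the CPM scale, PLIN3 rose from 103 ± 12.6 to 177 ± 17.3, a log2 fold change of 0.78 with an adjusted p of 2.28e-05. PLIN3 thus rose where PLIN2 fell in the main fit.

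ADIPOQ (ENSG00000181092, chromosome 3, 186842690 to 186858463, plus strand) encodes adiponectin, a hormone that mature fat cells secrete. It had 0 counts in all 6 libraries, which allows up to 3 counts a library, or 0.123 to 0.139 CPM. This limit covers counting error only. Of the ADIPOQ exon bases, 46.2% are shared with ADIPOQ-AS1, an antisense gene that also had no count. These non-stranded libraries cannot separate reads of the shared bases.

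Ordered by TPM, control cells had CEBPB first at 207 ± 18.9, then CEBPD at 41.8 ± 3.65, PLIN2 at 36.3 ± 2.79 and PPARG at 11.4 ± 0.779. CEBPD and PLIN2 overlapped, and CEBPB and PPARG stood apart from their neighbours. In KO cells the order was CEBPB at 168 ± 11.4, PLIN2 at 29.4 ± 2.36, CEBPD at 23.2 ± 6.55 and PPARG at 22.2 ± 2.05. CEBPD overlapped with both of its neighbours there. The other genes were near or below 1 TPM in both groups, with FABP4 highest at 1.22 in control and 0.953 in KO, and their neighbours in the order overlapped in control. Over all 6 libraries, the mean TPM of CEBPB was above that of 95.5% of 19951 protein-coding genes. PLIN2 was above 72.3%, CEBPD above 72.1% and PPARG above 60.6%. The low genes with counts ran from 32.6% for LPL to 38.5% for FABP4, and ADIPOQ, without a count, was above none.

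A further 88 genes of fat cell formation and triglyceride storage were listed by role, and 73 could be tested. Of these, 13 rose and 22 fell, which is 47.9% against 41.6% of all genes (20.7% higher and 20.9% lower, the background for each role), and 4 were called higher and 8 lower, which is 16.4% against 12.6%. Without control replicate 1, 7 were called higher and 8 lower. Their median log2 fold change was -0.12. Genes without a count in any library numbered 9, among them LEP, RETN, CIDEC and DLK1.

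Of 18 positive regulators of fat cell formation, 1 rose and 9 fell, beside 20.7% and 20.9% of all genes tested, with a median of -0.47. EBF2, a factor of brown fat precursors, rose from 4.65 ± 0.698 CPM to 19.9 ± 1.10 (log2 fold change 2.10, SE 0.157, adjusted p = 5.62e-08). KLF15, which acts on PPARG in later stages, fell from 10.8 ± 1.48 CPM to 4.19 ± 0.653 (-1.37, adjusted p = 2.88e-05). KLF9 fell from 43.9 ± 3.06 to 20.2 ± 1.10 (-1.12, adjusted p = 8.42e-07). KLF9 lies on chromosome 9, whose median of -0.24 was not subtracted here. PRDM16, which directs cells to brown fat, had 69, 61 and 65 counts in control and 6, 3 and 1 in KO (-4.30, adjusted p = 8.25e-06), and ZNF467, which favours fat over bone in marrow stroma, had 54, 82 and 44 and 0, 6 and 0 (-4.91, adjusted p = 7.56e-05). The size for ZNF467 rests on the 6 counts of KO replicate 2, without which it was -8.92, a value fitted against libraries at 0 that depends on the prior count and is no bound. PRDM16 and ZNF467 were picked out after their values were seen. Each KO library held fewer than 10 counts of either gene. Their adjusted p-values therefore come from the main filter, and the stricter filter, which asks for 10 counts per library, left both genes out. KLF9 and KLF15 were past the fold threshold by their estimates, and a test against that threshold gave adjusted p-values of 0.496 and 0.122. SREBF1, the most abundant gene of the role, had a value of -0.23 that missed the threshold (adjusted p = 0.0803).

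Of 13 negative regulators, 11 could be tested and 6 passed, each of them lower, beside 20.9% of all genes tested that fell, with a median of -0.52. ZNF521, which opposes ZNF423 and EBF factors, fell from 12.4 ± 1.27 CPM to 3.62 ± 0.426 (-1.77, SE 0.175, adjusted p = 1.04e-06). NR2F2, the most abundant, had -0.07 (adjusted p = 0.518). GATA3, which holds fat precursors back and was picked out after its values were seen, was too low to test. Its control libraries had 0, 1 and 0 counts and its KO libraries 11, 18 and 1. Without the filter on low counts it was higher in KO (log2 fold change 4.37, SE 1.48, adjusted p = 0.0153), a fitted value that rests on 1 control count, and KO replicate 3 lay within the control range. Within the pair of ZNF423 and ZNF521, ZNF423 held 5.66% of the TPM in control and 9.43% in KO (exact permutation p = 0.30). The medians of positive and negative regulators were both below the -0.01 of all genes tested.

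Of 13 tested genes of fatty acid uptake, binding and activation, 3 rose and 4 fell, with a median of -0.15. ANGPTL4, an inhibitor of lipoprotein lipase and a target of PPARs, rose from 0.551 ± 0.146 CPM to 2.69 ± 0.334 (2.28, SE 0.392, adjusted p = 0.000251). VLDLR, a receptor of triglyceride-rich lipoproteins, fell from 129 ± 12.6 to 54.3 ± 5.42 (-1.25, adjusted p = 1.30e-07), and shares 7.90% of its exon bases with VLDLR-AS1. VLDLR also lies on chromosome 9, whose median of -0.24 was not subtracted. ACSL4, which activates long fatty acids and was picked out after its value was seen, rose from 173 ± 16.4 to 331 ± 25.3 (0.93, adjusted p = 7.72e-07).

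Of 12 tested genes of triglyceride synthesis, 4 rose and 1 fell, with a median of 0.08. GPAT3, which adds the first fatty acid to glycerol phosphate in fat cells, rose from 1.28 ± 0.255 CPM to 5.49 ± 0.480 (2.10, SE 0.264, adjusted p = 1.33e-05). AGPAT2, which adds the second, had 0.02 (adjusted p = 0.930), and its sign turned under 3 alternatives. Of 5 tested lipid droplet proteins beside PLIN2, PLIN3 rose and FITM2, which helps droplets form, fell (-0.58, SE 0.129, adjusted p = 0.00206). FITM2 was also picked out after its value was seen.

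Of 6 genes of lipolysis and its inhibitors, 3 rose, beside 20.7% of all genes tested, with a median of 0.51. PNPLA3, a lipase-like protein of lipid droplets, rose from 11.1 ± 1.20 CPM to 29.1 ± 2.28 (1.39, SE 0.132, adjusted p = 6.81e-07). It shares 4.58% of its exon bases with SAMM50 on the same strand, which had 697 to 925 counts in a library. ABHD5, the activator of the lipase PNPLA2, rose by 0.90 (adjusted p = 3.14e-05). LIPE, hormone-sensitive lipase, rose by 0.90 (adjusted p = 0.0233), with 2.26, 4.08 and 2.55 CPM in control and 7.81, 4.80 and 3.95 in KO, which overlap. ABHD5 and LIPE were picked out after their values were seen, and LIPE ranged from 0.56 to 1.19 with a library left out, with an adjusted p up to 0.179. PNPLA2 itself, the most abundant, had -0.12 (adjusted p = 0.336).

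Of 8 tested fat cell hormones and their receptors, 1 rose and 1 fell, with a median of -0.08. LEPR, the leptin receptor, fell from 300, 206 and 233 CPM to 21.4, 20.4 and 23.9 (-3.49, SE 0.133, adjusted p = 4.81e-11). Every KO library was far below each control library. LEPR shares 165 exon bases with LEPROT, which had 4884 to 5478 counts in control and 4235 to 4473 in KO. ADIPOR2, an adiponectin receptor picked out after its value was seen, rose by 0.48 (adjusted p = 0.000151), and AGT, the most abundant of the role, had -0.12 (adjusted p = 0.286).

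**Figure D3:**
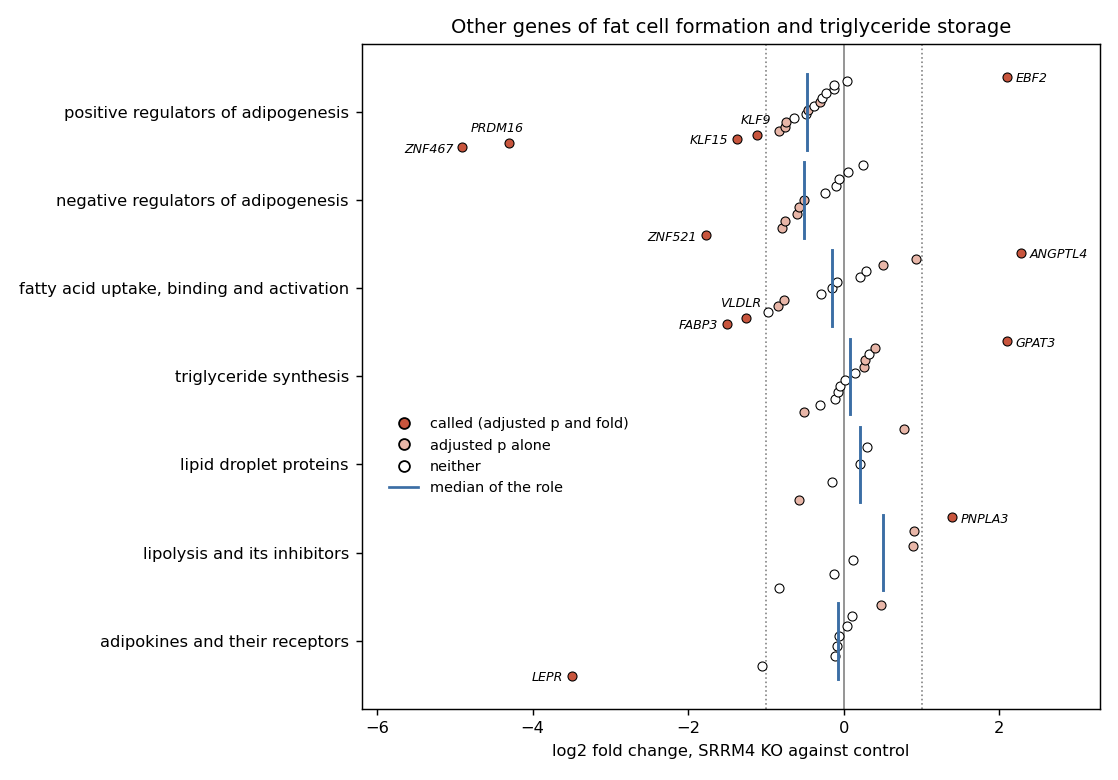
Log2 fold change of SRRM4 KO against control for the 73 further genes tested, with a row for each role, a dot for each gene and a bar at the median of the role. The medians of positive and negative regulators lie at -0.47 and -0.52 and that of lipolysis genes at 0.51, and the dotted lines mark a log2 fold change of 1 in either direction.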

How the data were processed

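The authors deposited raw counts per gene from non-stranded mRNA-seq of 6 libraries. The submitters' processing notes name HISAT2 2.0.5, featureCounts 1.5.0-p3 and DESeq2, and the genome build is not given in the sources used here. Gene IDs were matched to GENCODE 29 (GRCh38), with 58735 of 58735 found. Libraries were grouped by genotype label. The study's methods state at least 3 repeats of all experiments without saying whether these libraries came from separate cultures, so p-values measure the spread between these samples, which may be technical. No pair of replicates agreed within sampling noise.

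Counts were tested with edgeR 4.0.16 in R 4.3.3 (TMM, filterByExpr, prior count 0.125, quasi-likelihood test, Benjamini-Hochberg adjustment over 15341 genes). TPM was computed from counts and gene length, and shares were compared by an exact permutation test in scipy 1.17.1. The scripts were tested on simulated data. Promoter sequences are from RefSeq (GRCh38.p14), and 6 of the 10 genes matched.

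The 10 genes, the further lists and the marker lists were chosen with earlier results of these data known. The genes named were the 10, per role up to 2 called genes of highest CPM in each direction and the tested gene of highest TPM, and the members of a family whose shares are given. The other genes named were picked out after their values were seen, as stated beside each, or are markers, overlapping genes or genes without a count. Alternatives were other scalings and filters, DESeq2 1.42.0, a replicate block, each library left out, a test against the fold threshold, no fold threshold and, for single genes, subtraction of the chromosome median.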

Additional observations from a re-analysis of the deposited data

How the results depend on the processing

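Of the fat cell genes named and tested, all but 4 kept their direction under the alternatives run. CEBPA, FABP4 and GATA3 were fitted only with the filter removed, and LIPC and LIPG entered only a share. With a library left out, LPL ranged from -0.00092 (without KO replicate 3) to 1.07 and AGPAT2 from -0.18 (without control replicate 1) to 0.18, also turning without KO replicate 2 (-0.04) and with upper-quartile scaling (-0.0093). PLIN4, another perilipin, ranged from -0.044 (without control replicate 1) to 0.45 and DGAT1 from -0.19 to 0.036 (without control replicate 3). Of all genes, 836 were called higher and 1096 lower, against 360 and 577 in a test of the fold threshold itself and 3171 and 3213 with no fold threshold. Of the 10 genes, 1 was called higher with scaling by library totals alone and 1 with no fold threshold, and that was PPARG. None was called lower when at least 10 counts were required in every library or against the fold threshold, and 4 with no fold threshold. With a library left out, 0 to 1 of them were called higher and 0 to 2 lower. By the adjusted p alone, counted after seeing the data, 4 fell, 2 with library totals alone and 2 to 4 with a library left out. With library totals, PLIN2 (adjusted p = 0.0705) and CEBPB (0.0735) were lost. Of the further genes, 4 to 7 were called higher and 8 to 9 lower with a library left out, the 7 without control replicate 1, and 13 and 22 with no fold threshold. Against the fold threshold itself 4 were called higher and 6 lower, and with at least 10 counts in every library 3 and 6.

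Replicate numbers did not pair the samples, since the correlations of same-numbered deviations were -0.09, 0.11 and -0.10. With the replicate number as a block, 842 genes were called higher and 1093 lower, PLIN2 had an adjusted p of 0.0547 and PPARA one of 0.101, and no other of the 7 genes changed its side of the thresholds. Centring on the chromosome left the sign of each of the 7. Depth limits CEBPA, FABP4, LPL, ZNF423 and DGAT2, with at most 40 counts in a library.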
